A study of Mus musculus with 8 samples.

Results

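The genes described here are 10 members of the Trithorax-type MLL machinery and its allies in the posterior tail bud of the mouse embryo: the histone methyltransferases Kmt2a, Kmt2b, Kmt2c and Kmt2d, the shared subunits Wdr5, Rbbp5, Ash2l and Dpy30, the menin gene Men1, and the demethylase gene Kdm6b. They were taken by symbol from a table of 26171 genes, and all 10 had a line in it. The study sequenced polyadenylated RNA, after Smart-seq2 library preparation, from the rear tail bud with presomitic mesoderm of embryos at E8.5, matched for somite number. The labels put 4 of the 8 samples in a wild-type group and 4 in an EPOP KO group. Epop encodes a factor that associates with Polycomb repressive complex 2 (PRC2), and the series asks how it bears on Hox genes. The labels give no strain, allele, sex or pooling for either group, and no treatment was applied.

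The 8 value columns of the table carried no names, so no value below is assigned to an embryo or a genotype, and no difference between knockout and wild-type is reported. The columns are described together as 8 libraries of one tissue. Each spread between libraries therefore holds differences between embryos, between library preparations and between the genotypes, which cannot be told apart here. Values are RPKM, read counts divided by gene length and by a measure of library size, so that levels of genes of different length can be set side by side.

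Trithorax-group proteins keep developmental genes active, in opposition to Polycomb. The enzymes encoded by Kmt2a to Kmt2d methylate lysine 4 of histone H3 (H3K4), Kmt2a and Kmt2b mainly at promoters and Hox genes, Kmt2c and Kmt2d mainly at enhancers. Each works only weakly without a common module of WDR5, RBBP5, ASH2L and DPY30, and menin ties the Kmt2a and Kmt2b complexes to chromatin. KDM6B removes the repressive methyl mark on lysine 27 of histone H3 that PRC2 places. In the tail bud these activities meet at the Hox clusters, which are opened in order as the body axis grows.

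The methyltransferase genes are spread over 4 chromosomes. By mm10 coordinates from GENCODE M21, Kmt2a (ENSMUSG00000002028.13) lies at chr9:44803355-44881296, Kmt2b (ENSMUSG00000006307.16) at chr7:30568858-30588726, Kmt2c (ENSMUSG00000038056.15) at chr5:25271798-25498783 and Kmt2d (ENSMUSG00000048154.17) at chr15:98831669-98871204, all on the minus strand. Kmt2c spans 226986 bases and has 59 exons in its longest coding transcript, while Kmt2b spans 19869 bases with 37 exons. Of the other members, Wdr5 lies at chr2:27515157-27536535, Rbbp5 at chr1:132477365-132505659 and Men1 at chr19:6334979-6340891, all on the plus strand. Ash2l lies at chr8:25815996-25847694, Dpy30 at chr17:74299474-74323944 and Kdm6b at chr11:69398508-69413675, on the minus strand. Some members overlap other annotated genes, none of them listed in the table. Kdm6b has an antisense neighbour, Kdm6bos, and Kmt2a overlaps the antisense gene AC061963.1 and the same-strand Gm48314. Kmt2c overlaps 4 genes, of which 3 are processed pseudogenes. The sources used here do not say whether the counting used strand, so reads from such partners cannot be told apart from those of Kdm6b, Kmt2a and Kmt2c.

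The start regions of 3 of the 4 methyltransferase genes were in the RefSeq promoter table for GRCm38.p6, which is the assembly behind mm10. They are shown because KMT2A and KMT2B carry a domain that binds CpG-rich DNA, and the 3 starts shown are themselves rich in CpG. The start of Kmt2b was not among them. Each sequence is the 250 bases before the transcription start, on the minus strand, with every CpG in capitals.
Kmt2a, chr9:44881290-44881539, 29 CpGs: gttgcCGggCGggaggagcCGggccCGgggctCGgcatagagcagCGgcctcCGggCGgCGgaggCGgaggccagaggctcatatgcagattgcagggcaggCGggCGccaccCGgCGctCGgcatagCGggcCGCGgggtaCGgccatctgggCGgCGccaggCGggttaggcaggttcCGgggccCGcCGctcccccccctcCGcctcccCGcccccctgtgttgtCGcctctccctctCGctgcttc
Kmt2c, chr5:25498784-25499033, 48 CpGs: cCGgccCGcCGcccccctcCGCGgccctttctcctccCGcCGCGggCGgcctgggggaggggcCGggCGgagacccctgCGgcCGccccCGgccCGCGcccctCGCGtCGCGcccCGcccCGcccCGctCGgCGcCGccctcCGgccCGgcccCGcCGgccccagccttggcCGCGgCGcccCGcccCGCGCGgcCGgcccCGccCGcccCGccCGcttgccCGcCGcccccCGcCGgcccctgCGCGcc
Kmt2d, chr15:98871206-98871455, 26 CpGs: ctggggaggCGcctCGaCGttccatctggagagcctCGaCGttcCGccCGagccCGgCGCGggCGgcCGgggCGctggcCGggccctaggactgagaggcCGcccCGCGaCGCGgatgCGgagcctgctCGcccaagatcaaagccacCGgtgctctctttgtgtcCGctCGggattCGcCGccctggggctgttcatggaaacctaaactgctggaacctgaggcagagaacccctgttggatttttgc

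Over the full window, from 250 bases before to 50 after the start, the observed over expected CpG frequency was 0.839 for Kmt2a, 1.02 for Kmt2c and 0.917 for Kmt2d. Wdr5 had 0.881 and Rbbp5 1.13. A value of 0.6 or more was found in 5 of the 7 members with a window, and in 36.5% of the 27025 genes in the promoter table. Men1, with 0.517, and Dpy30, with 0.0810, fell below that value at their first listed start. Both genes have further listed starts, and the highest value among them was 0.648 for Men1 and 1.003 for Dpy30. Kmt2b, Ash2l and Kdm6b had no window.

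The tail bud markers looked at were present in every library. The RPKM values were whole multiples of 1 counted fragment (whether a read or a read pair is not known here) at effective totals of 46250000 to 56030000 fragments, for 86.4% to 87.8% of the single-exon genes above 0 in each library. Library pairs had Pearson correlations of log2(RPKM + 1) between 0.975 and 0.993, across genes, which are not independent replicates. All 10 tail bud markers, such as Cdx4, Msgn1 and T, were at 1 RPKM or above in all 8 libraries, and 0 of the 3 forebrain markers reached 1 RPKM in any library, with medians of at most 0.0638 RPKM. Markers of other cell types were present at lower levels. The heart genes Myl7 (3.77 to 7.86 RPKM) and Tnnt2 (1.78 to 4.21) were at 1 RPKM or above in all 8 libraries, while Nppa reached it in none. Of the endothelial genes, Kdr (7.61 to 10.9) and Pecam1 (3.60 to 4.91) reached it in all 8, and Cdh5 (0.805 to 1.74) in 7. Blood RNA varied most: the summed RPKM of 4 embryonic blood markers was 5.42 in the lowest library, 14.1 in the next and 917 in the highest. The sum of 3 definitive endoderm markers ranged from 195 to 315 RPKM, nearly all of it Cldn6, with a median of 224 RPKM against 6.30 for Sox17 and 4.45 for Foxa2, and that of the 10 tail bud markers from 522 to 989 RPKM. In bulk tissue, fewer cells of a type and less RNA per cell cannot be told apart.

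**Figure D1:**
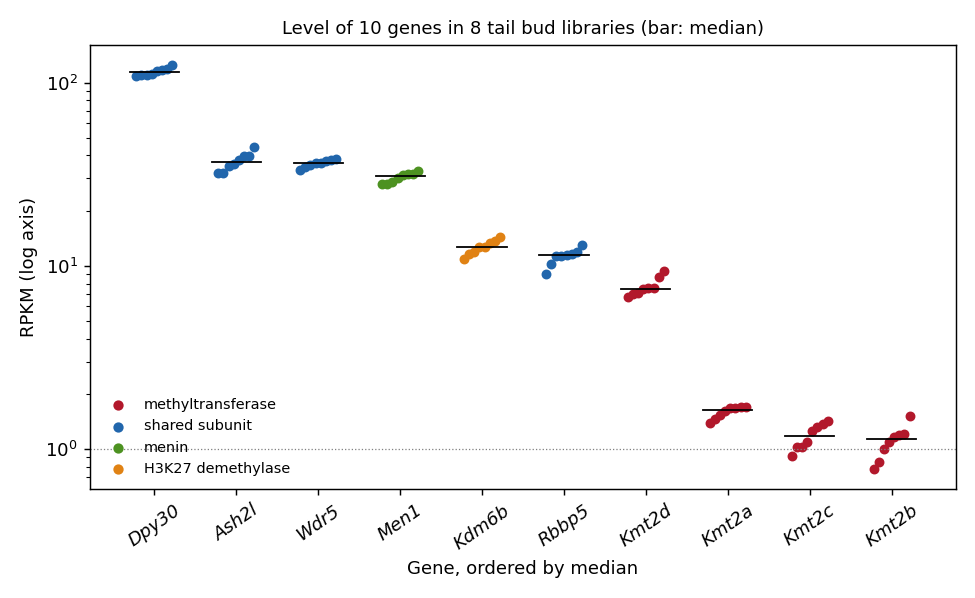
RPKM (log axis) of the 10 genes in each of 8 tail bud libraries, with genes ordered by median and libraries sorted by value within each gene. The 4 methyltransferase genes lie at the low end, from a median of 7.49 for Kmt2d to 1.13 for Kmt2b, and Dpy30 lies highest, at 114. The dotted line marks 1 RPKM, and bars are medians.

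The mRNAs of the catalytic subunits were low, and one of them made up most of the total. Kmt2d, for the main H3K4 monomethyltransferase of enhancers, had a lowest value of 6.74, a median of 7.49 and a highest of 9.34 RPKM over the 8 libraries. Kmt2a, the mouse gene of the leukaemia-associated MLL1, ranged from 1.38 to 1.69 RPKM around a median of 1.64. Kmt2d was above Kmt2a in 8 of 8 libraries, by 3.98-fold to 5.61-fold, and the ranges of the 2 genes did not overlap.

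Kmt2c, the closest relative of Kmt2d, had a lowest value of 0.919, a median of 1.18 and a highest of 1.42 RPKM. Kmt2d was 4.95-fold to 9.06-fold above Kmt2c within the same library. Kmt2b, the closest relative of Kmt2a, had a lowest value of 0.782, a median of 1.13 and a highest of 1.51 RPKM. The 3 low genes lay close together. Kmt2a was above Kmt2c and above Kmt2b in 8 of 8 libraries, although their ranges overlapped, with median ratios of 1.38 and 1.40. Kmt2c was above Kmt2b in 5 of 8 libraries and below it in the other 3, so these 2 neighbours had no fixed order.

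Within a library, Kmt2d made up between 59.6% and 72.9% of the summed RPKM of the 4 methyltransferase genes, with a median of 66.6%. That sum ranged from 10.7 to 12.97 RPKM. A level of 1 RPKM or above in all 8 libraries was reached by Kmt2d and Kmt2a. Kmt2c was there in 7 libraries and Kmt2b in 6. Over all members, 8 of 10 met this level, beside 38.4% of the 26171 genes in the table.

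These low RPKM values still rested on many fragments, because the genes are long. For Kmt2d, the length for which all 8 values became whole fragments was 19827 bases, and its values stood for 6513 to 10189 fragments. For Kmt2a this length was 16463 bases and the fragments numbered 1115 to 1561. For Kmt2b it was 8484 bases, with 334 to 636 fragments. Its lowest library had an exact 95% Poisson interval of 0.703 to 0.866 RPKM and its highest one of 1.40 to 1.64 RPKM, which do not overlap. If single reads of a pair had been counted apart, they would be too narrow. These intervals cover counting error only, since reads without molecular identifiers are not independent molecules.

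Among the genes compared, longer transcripts went with lower levels. Genes with a median of at least 1 RPKM had a median level of 19.2 RPKM where the longest transcript was under 2000 bases, and of 2.92 RPKM in the 188 genes of 10000 bases or more. Kmt2d, with the longest transcript of the members at 19823 bases, was above that second median, and Kmt2a and Kmt2c were below it. The 1962 genes from 5000 to under 10000 bases had a median of 4.04 RPKM, and Kmt2b, at 8469 bases, was below that. The part of transcript length, or of its coverage in Smart-seq2, in the low levels of these genes was not tested.

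Of the shared subunits, 3 were the most abundant members, and the fourth, Rbbp5, ranked below Men1 and Kdm6b by median. Dpy30, for the small dimeric subunit that stimulates the module, had a lowest value of 109, a median of 114 and a highest of 125 RPKM, and stood above all other members in all 8 libraries. Ash2l, whose product contacts the catalytic domain together with RBBP5, had a lowest value of 32.0, a median of 36.9 and a highest of 44.3 RPKM. Wdr5, for the WD-repeat scaffold, lay between 33.1 and 38.4 RPKM with a median of 36.4. Ash2l was above Wdr5 in 5 of 8 libraries, so the order of these 2 did not hold from library to library. Rbbp5 was the least abundant of the 4, with a lowest value of 9.005, a median of 11.4 and a highest of 12.9 RPKM.

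Dpy30 exceeded Ash2l by 2.49-fold to 3.91-fold and Rbbp5 by 9.04-fold to 12.1-fold within a library. It supplied between 54.0% and 61.3% of the summed RPKM of the shared subunits. All 16 pairings of a shared subunit with a methyltransferase had the subunit higher in 8 of 8 libraries. The closest of these was Rbbp5 against Kmt2d, with ratios from 1.03 to 1.83 and overlapping ranges. The 4 subunits together had 14.5 to 18.7 times the summed RPKM of the 4 methyltransferases. Rbbp5 alone came to between 0.694 and 1.21 times that sum, with a median of 1.01.

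By median, Men1 and Kdm6b lay below Dpy30, Ash2l and Wdr5 and above Rbbp5 and the methyltransferases. Men1 had a lowest value of 27.97, a median of 30.8 and a highest of 32.7 RPKM, and was below Wdr5 in 8 of 8 libraries by a median factor of 1.20. Set against the 2 methyltransferases that menin binds, Men1 had 8.90 to 13.6 times the summed RPKM of Kmt2a and Kmt2b. Kdm6b, for the H3K27 demethylase also known as JMJD3, had a lowest value of 10.9, a median of 12.7 and a highest of 14.4 RPKM. It was above Rbbp5 in 6 of 8 libraries and their ranges overlapped. Kdm6b was 2.07-fold to 2.88-fold below Men1 and 1.45-fold to 1.88-fold above Kmt2d, in 8 of 8 libraries each. Its RPKM was between 0.975 and 1.21 times the sum of the 4 methyltransferases.

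Across all 45 pairs of members, 42 had the same order in all 8 libraries and 38 had ranges that did not overlap. The 3 pairs whose order changed were Ash2l with Wdr5, Kdm6b with Rbbp5, and Kmt2c with Kmt2b. From the highest to the lowest member the medians differed by 101-fold, between Dpy30 and Kmt2b. Among the 10899 genes with a median of at least 1 RPKM, Dpy30 stood at percentile 94.0, Ash2l at 82.5 and Men1 at 79.6. Kdm6b stood at 61.6 and Kmt2d at 48.5, whereas Kmt2a was at 10.4, Kmt2c at 3.23 and Kmt2b at 2.46.

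**Figure D2:**
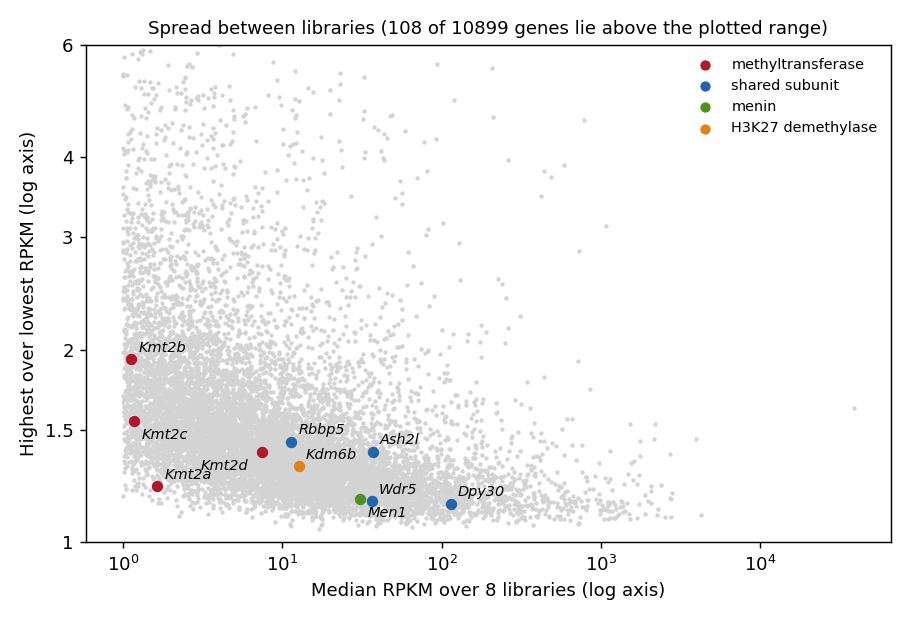
Highest over lowest RPKM in 8 libraries (log axis) against median RPKM (log axis), for genes with a median of at least 1 RPKM (grey) and the 10 members (colour). Dpy30, Wdr5 and Men1 lie near the lower edge at 1.15 to 1.17, and Kmt2b is the highest member at 1.94. Of the 10899 genes, 108 lie above the plotted range.

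Members differed in how much they varied between libraries. The highest library exceeded the lowest by 1.15-fold for Dpy30, 1.16-fold for Wdr5 and 1.17-fold for Men1, which placed these 3 at percentiles 5.94, 7.47 and 9.11 of the genes with a median of at least 1 RPKM. Kmt2a followed with 1.22-fold, at percentile 18.7. Kdm6b varied by 1.31-fold, at percentile 35.3. Kmt2d and Ash2l varied by 1.39-fold each, at percentiles 46.4 and 46.5, and Rbbp5 by 1.44-fold, at 53.6. The median over the 10 members was 1.35-fold, and that over the 10899 genes was 1.41-fold. Over genes with a median of at least 5 RPKM it was 1.31-fold. Kmt2a, Kmt2b and Kmt2c fall below that filter, yet the 1.35-fold of the members includes them, so these values are not like for like. The members as a list were not shown to be steadier or more variable than the table. The percentiles pool genes of all levels from 1 RPKM up, and no member was ranked among genes of like level.

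Kmt2c, with 1.55-fold, and Kmt2b, with 1.94-fold, were the members that varied by 1.5-fold or more, which makes 2 of 10, at percentiles 64.5 and 84.3. Of the 10899 genes, 39.6% did so. These 2 genes also had the fewest fragments, and the grey points widen toward low RPKM in the plot of spread against level. Kmt2b had 1 library at 1.51 RPKM, with the next at 1.20, and its 2 lowest at 0.782 and 0.851. Without the library that moved it most, the spread was 1.54-fold for Kmt2b and 1.39-fold for Kmt2c. Kmt2c then fell below 1.5-fold and Kmt2b did not. The highest values of the 10 members were scattered over all 8 libraries, with at most 2 members peaking in the same one. The lowest values fell in 7 libraries, and 1 of these held the lowest value of 4 members.

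The ranges also set an arithmetic bound on the ratio of group means in these libraries, without assigning a column. Such a bound exists for any gene and is not an estimate of a genotype difference. Whichever libraries carried either label, the ratio of the mean RPKM of 2 sets of these libraries cannot exceed the highest over lowest value of the gene. That limit was 1.15-fold for Dpy30, 1.31-fold for Kdm6b and 1.94-fold for Kmt2b. For all 10 members the limit on the mean RPKM in this table was below 2-fold. The share of all genes below 2-fold was not counted, so this does not set the members apart. A spread of 1.5-fold or more was found in 2 of the 10 members and in 39.6% of the 10899 genes with a median of at least 1 RPKM.

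**Figure D3:**
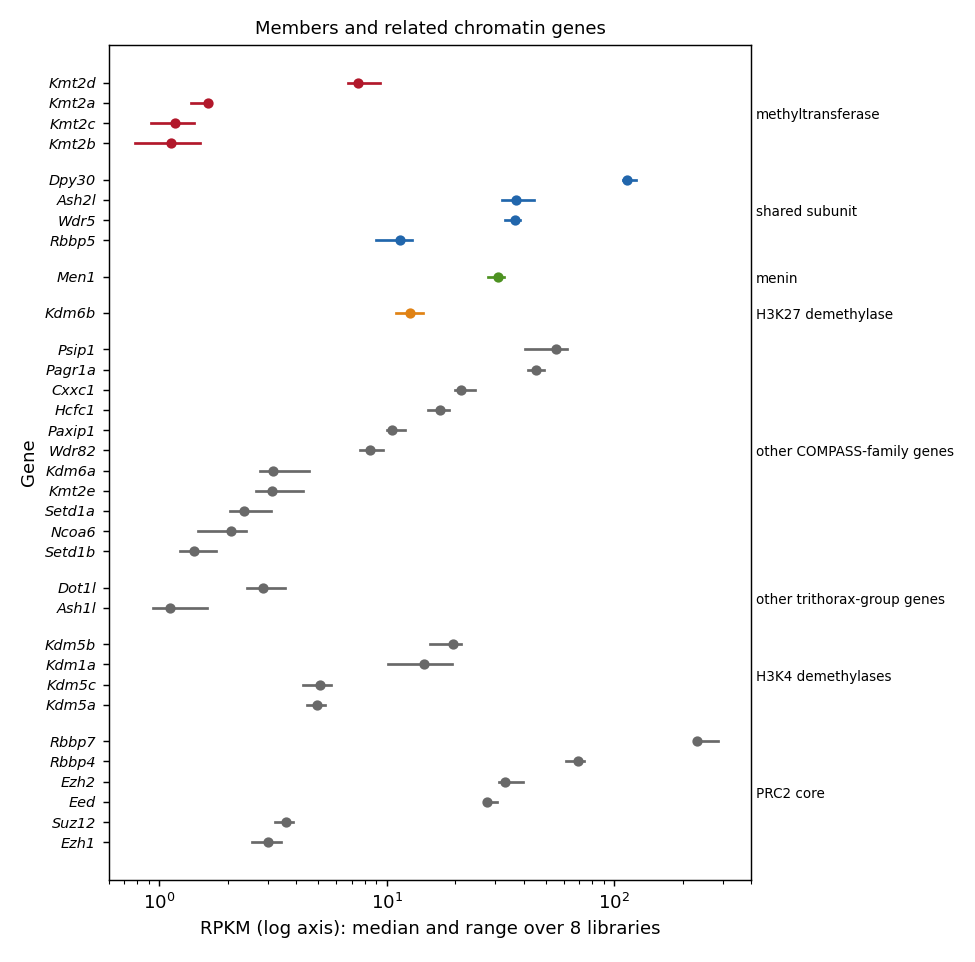
Median (point) and range (line) of RPKM (log axis) over 8 libraries for the 10 members (colour) and 23 related chromatin genes (grey), by list. The 2 Setd1 genes lie near Kmt2a, at medians of 2.36 and 1.42, and Ezh2 and Eed lie near Wdr5 and Men1, at 33.1 and 27.6.

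The related genes give the members a scale. Of the 11 other listed genes of H3K4 methyltransferase complexes and their partners, all 11 were at 1 RPKM or above in the 8 libraries. Their medians ran from 1.42 for Setd1b to 55.2 for Psip1, whose product recruits menin complexes to chromatin. The H3K4 methyltransferase genes Setd1a and Setd1b of this list were also low. Setd1a ranged from 2.05 to 3.10 RPKM around a median of 2.36, above the range of Kmt2a, and Setd1b ranged from 1.23 to 1.78 RPKM, which overlapped it. Kmt2d was thus the most abundant of these 6 enzyme genes.

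Kdm6a, which encodes the H3K27 demethylase UTX that sits in the Kmt2c and Kmt2d complexes, had a lowest value of 2.77, a median of 3.15 and a highest of 4.53 RPKM. Kdm6b exceeded it by 2.41-fold to 4.68-fold within a library, so of the 2 demethylase genes Kdm6b was the higher in each. The 4 H3K4 demethylase genes were all at 1 RPKM or above, from a median of 4.92 for Kdm5a to 19.5 for Kdm5b. Of 2 further trithorax-group genes, Dot1l had a median of 2.84 and Ash1l of 1.11 RPKM, and Ash1l was at 1 RPKM or above in 7 libraries.

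PRC2, which the MLL complexes oppose, was represented by 6 core genes, all at 1 RPKM or above in the 8 libraries. Ezh2, its main catalytic subunit, had a lowest value of 31.1, a median of 33.1 and a highest of 39.7 RPKM. Ezh2 was 2.57 to 3.46 times the sum of the 4 MLL methyltransferase genes. Eed, with a median of 27.6 RPKM, lay just below Men1, while Suz12, with 3.59 RPKM, lay between Kmt2d and Kmt2a. The list ran from Ezh1, at 2.998, to the histone-binding gene Rbbp7, at 231 RPKM, which serves several other complexes too.

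**Figure D4:**
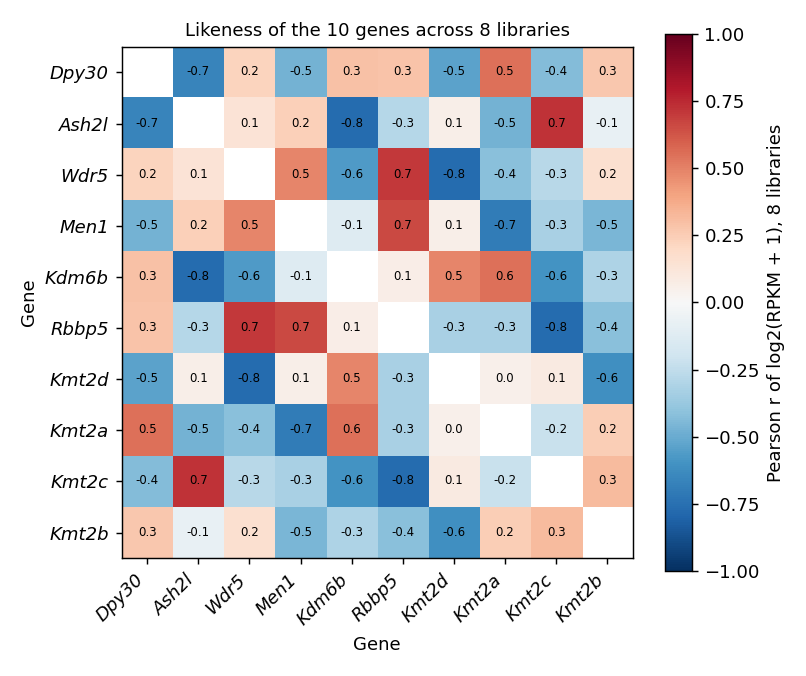
Pearson correlation of log2(RPKM + 1) over 8 libraries for each of 45 pairs of the 10 genes, ordered by median level. Positive and negative values are mixed, from 0.72 for Ash2l with Kmt2c to -0.77 for Wdr5 with Kmt2d.

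The members did not share one pattern over the libraries. Among the 45 pairs, the Pearson correlation of log2(RPKM + 1) was above 0 in 21 and below 0 in 24, with a median of -0.13. The median correlation of a member with any of the genes compared was 0.00. The highest value was that of Ash2l with Kmt2c, 0.72, with a Spearman's rho of 0.62, and the lowest was that of Wdr5 with Kmt2d, -0.77, with a rho of -0.67. Within the shared module, Wdr5 and Rbbp5 had the highest r, 0.71 (rho 0.55), and Dpy30 and Ash2l the lowest, -0.66 (rho -0.62). The remaining pairs of the module lay between -0.29 and 0.28 by r. With the effective total, the r of the members ran from -0.57 for Wdr5, with -0.36 for Rbbp5, to 0.53 for Kdm6b. The part of library size in these patterns was not tested. All of these rest on 8 libraries that share their scaling, and they are given as descriptions.

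Ash2l and Kmt2c, the most alike pair, also followed Cldn6, an epithelial claudin gene that dominates the endoderm sum. The correlation with Cldn6 was 0.77 for Ash2l and 0.78 for Kmt2c, and it was 0.7 or more for 13.8% of the 10899 genes. With Sox17 it was 0.35 for Ash2l and 0.49 for Kmt2c, and with Foxa2 it was 0.44 and 0.66. Dpy30 had -0.67, Kmt2a -0.63 and Kdm6b -0.52 with Cldn6. With Sox17 the same genes had -0.32, -0.73 and -0.29, and with Foxa2 -0.61, -0.53 and -0.18. The summed tail bud markers ran the other way, with -0.53 for Ash2l and -0.67 for Kmt2c (rho -0.67 and -0.81), and with 0.64 for Kmt2a, 0.54 for Kdm6b and 0.42 for Dpy30 (rho 0.36, 0.71 and 0.52). The other 5 members lay between -0.29 and 0.29 with the tail bud sum by r, but by rho Rbbp5 had 0.69 and Kmt2b -0.45. The rho was 0.14 for Men1, 0.02 for Wdr5 and -0.05 for Kmt2d. With the summed blood markers, Ash2l had an r of 0.48 and Kmt2b of -0.40, and no other member was further from 0 than these by r. By rho, Kmt2a had 0.43, Kmt2b -0.43 and Ash2l 0.29. The part of tissue composition in the spread of these genes was not tested.

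By Pearson correlation, the gene most like each member was Gm10653 for Dpy30 (0.99), Tac2 for Kmt2b (0.98), Arhgef1 for Men1 (0.97) and Phyhd1 for Kmt2c (0.97). It was AU020206 for Kmt2a, Aadac for Ash2l and Shroom4 for Kdm6b, each at 0.96. For Kmt2d, Wdr5 and Rbbp5 it was Prrc2c, Ska2 and Mvd, each at 0.94. Each was the highest of 10898 correlations over 8 libraries, and between 5 and 90 genes per member reached 0.9 or more, the most for Ash2l. The Spearman's rho of these 10 pairs lay between 0.74 and 0.98.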

How the data were processed

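RNA was measured in 8 libraries, 4 labelled wild-type and 4 labelled Epop knockout. The authors deposited 1 table of RPKM values, a unit given by the table's name. TopHat, DESeq2 and mm10 are named, without versions or roles, per the submitters' processing notes. The sources used here give no annotation, read counter or filter.

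The table had no header. Its name lists 8 labels that match the 8 sample titles, so the 8 columns were treated as the libraries of the one tissue. All 8 columns lack a name that gives them a sample of their own. Neither the order of the labels nor any value was used to assign a column, so the planned comparison of genotypes was not made and no p-value is given.

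The deposited RPKM values had already been scaled between libraries: over the 15632 genes above 0 in all columns, the median ratio to the geometric mean was 1.01 in each. Effective totals were recovered as the number at which values of 2470 single-exon genes, times RefSeq length, became whole (tolerance 0.02); they include this scaling and are not sequencing depths. Gene lengths were then recovered as the smallest that made all 8 values whole (tolerance 0.001), and a multiple of that length would do so too. Both steps were tested on simulated Poisson counts without scaling between libraries. The length step was given the true totals there, and a divisor of the true length counted as a pass.

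Levels are given as lowest, median and highest. Correlations used a pseudocount of 1 and genes with a median of at least 1 RPKM. Work was done in Python 3.11.15 with numpy 2.4.6, pandas 2.3.3 and scipy 1.17.1. The members, related gene lists and markers were chosen with earlier results on these data known. The genes named are all members, the highest, lowest and direct counterparts of each related list, the gene most like each member, and the extreme pairs. Further pairs and some markers were named after their values were seen. Protein sequences were not used here. Alternatives changed scaling, pseudocount, detection level and the filter, or left out libraries.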

Additional observations from a re-analysis of the deposited data

How the results depend on the processing

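Rescaling each library to the same sum changed the unit of the levels, and the median of the 10 member medians went from 12.0 to 25.3. Rescaling by the median of gene ratios left every spread of the members as it was, since the deposited values already had equal medians. At a detection level of 5 RPKM, 23.2% of genes and 7 members passed in all libraries, and at 0.5 RPKM 43.1% of genes and all 10 members did. Leaving out each library in turn gave a median correlation over the 45 pairs between -0.21 and -0.013, and 8 or 9 members at 1 RPKM or above in all remaining libraries. The count of 42 pairs in the same order was the same without any 1 library. With these, 25 of the 28 recomputed summary values stayed within the spread or within 1.5 times the value reported. No paired analysis was possible because the columns carry no replicate numbers. Counting error limits Kmt2b most, at 5.23% in its lowest library, and Kmt2d least, at 1.23%.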
